A study of Mus musculus with 34 samples.

Results

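The hormone genes of islet cells other than the β-cell were examined as a set of 6 genes chosen by name, out of 21887 protein-coding genes of the mouse genome. They are Sst, which encodes somatostatin of the delta cell, Gcg, which encodes proglucagon of the alpha cell, Ppy and Pyy, which encode pancreatic polypeptide and peptide YY, Ghrl, which encodes ghrelin of the epsilon cell, and Ttr, which encodes transthyretin, a carrier of thyroid hormone and retinol-binding protein that alpha cells make in quantity. The cells were Beta-TC6, a mouse insulin-producing β-cell line, in which these genes mark cell types other than that of the line. Binding of p65, PDX1 and SIN3A was mapped by chromatin immunoprecipitation with sequencing, in which an antibody pulls down a protein together with its DNA. A peak was assigned to the gene with the nearest protein-coding gene body within 50 kb, on the mm10 build named in the submitters' processing notes.

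For p65 and for PDX1 there were 4 groups each, namely Bmal1-/- cells with IL-1β, Bmal1-/- cells under control conditions, WT cells with IL-1β and WT cells under control conditions. For SIN3A there were 2 groups, WT cells given Pdx1 siRNA and WT cells given control siRNA. Every group had been synchronised with forskolin at 10 µM for 1 h, and neither the dose nor the duration of IL-1β is stated in the labels. The labels name 3 samples for each p65 or PDX1 group and 2 for each SIN3A group, but there is a single peak list for each group, so no difference could be set against a spread between replicates. For PDX1 with IL-1β the samples of both genotypes carry p65 as their antibody label, whereas titles and peak lists say PDX1, and the titles were followed. Whether the Bmal1-/- line is 1 clone is not stated, and the lists carry no RNA, so neither the cell identity nor the loss of Bmal1 or Pdx1 could be checked.

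Somatostatin and the PP-fold peptides restrain the secretion of neighbouring islet cells, whereas glucagon raises blood glucose. Ghrelin, known mainly from the stomach, also has a small islet source. PDX1, a homeodomain factor that recognises TAAT, maintains β-cells and is also present in delta cells, where it activates Sst. p65, the transactivating subunit of NF-κB, enters the nucleus after IL-1β. SIN3A holds together a corepressor complex that contains histone deacetylases.

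The strength of a peak is its normalised tag count, the tags in the peak per 10 M sequenced tags. Depth was 53.5 to 63.9 M tags for p65 and PDX1 and 31.0 to 35.0 M for SIN3A. Peaks were wider in Bmal1-/- PDX1 lists (418 bp with IL-1β, 472 bp in control) than in WT PDX1 lists (226 bp with IL-1β, 207 bp in control), so tags were gathered over unequal lengths. The lowest tag count in a list was 4.54 and 5.05 for Bmal1-/- PDX1 with and without IL-1β, against 2.75 and 2.49 for WT PDX1. Of all tags, 1.29% and 1.64% lay in peaks for Bmal1-/- PDX1 with and without IL-1β, against 5.55% and 5.0% for WT PDX1. The p65 lists differed as well, with 2.33% and 0.03% of tags in peaks for Bmal1-/- cells with and without IL-1β. For WT p65 these shares were 5.98% and 0.27%. Peaks of p65 were 231 bp and 479 bp wide in Bmal1-/- cells with and without IL-1β, and 206 bp in both WT lists. The part of these list properties in the differences between genotypes was not tested. Intervals on a tag count below are exact Poisson 95% intervals and cover counting error only. Tag counts of different lists are set side by side as a description.

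PDX1 was found at 4 of the 6 genes in WT cells and at 2 in Bmal1-/- cells, and its strongest peaks lay far from the genes. With IL-1β, PDX1 had 2 peaks at Sst and Pyy in Bmal1-/- cells and 9 peaks at Sst, Pyy, Gcg and Ttr in WT cells. Under control conditions the counts and the genes were the same, 2 peaks at 2 genes in Bmal1-/- cells and 9 peaks at 4 genes in WT cells. The share of all protein-coding genes with a PDX1 peak was 16.0% in Bmal1-/- cells with IL-1β and 16.3% without, against 41.1% in WT cells with IL-1β and 41.6% without. The 6 genes are too few for a count of 2 or 4 to stand apart from those shares. The median tag count of the member peaks was 42.5 in Bmal1-/- cells with IL-1β, 57.3 in Bmal1-/- control cells, 16.5 in WT cells with IL-1β and 15.3 in WT control cells, beside 13.8, 16.8, 9.88 and 8.64 over all peaks assigned to genes in those lists. These medians cover 2 peaks in each Bmal1-/- list and 9 in each WT list, so they do not compare the same sites. At the Sst and Pyy sites listed in both genotypes the WT tag counts were the higher ones. For p65 with IL-1β the medians were 14.7 in Bmal1-/- cells and 19.9 in WT cells, beside 9.36 and 10.6 over all assigned peaks, and for SIN3A they were 11.4 under Pdx1 siRNA and 10.5 under control siRNA, beside 22.3 and 20.3. A few of the PDX1 peaks were tall. In both WT PDX1 lists, Sst and Pyy each had a peak in the top 1% of the list by tag count, which 1.18% of all genes had with IL-1β and 1.22% in control. In Bmal1-/- cells Sst had such a peak in control, as did 0.279% of all genes, and no member had one with IL-1β, where 0.265% of all genes did.

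**Figure D1:**
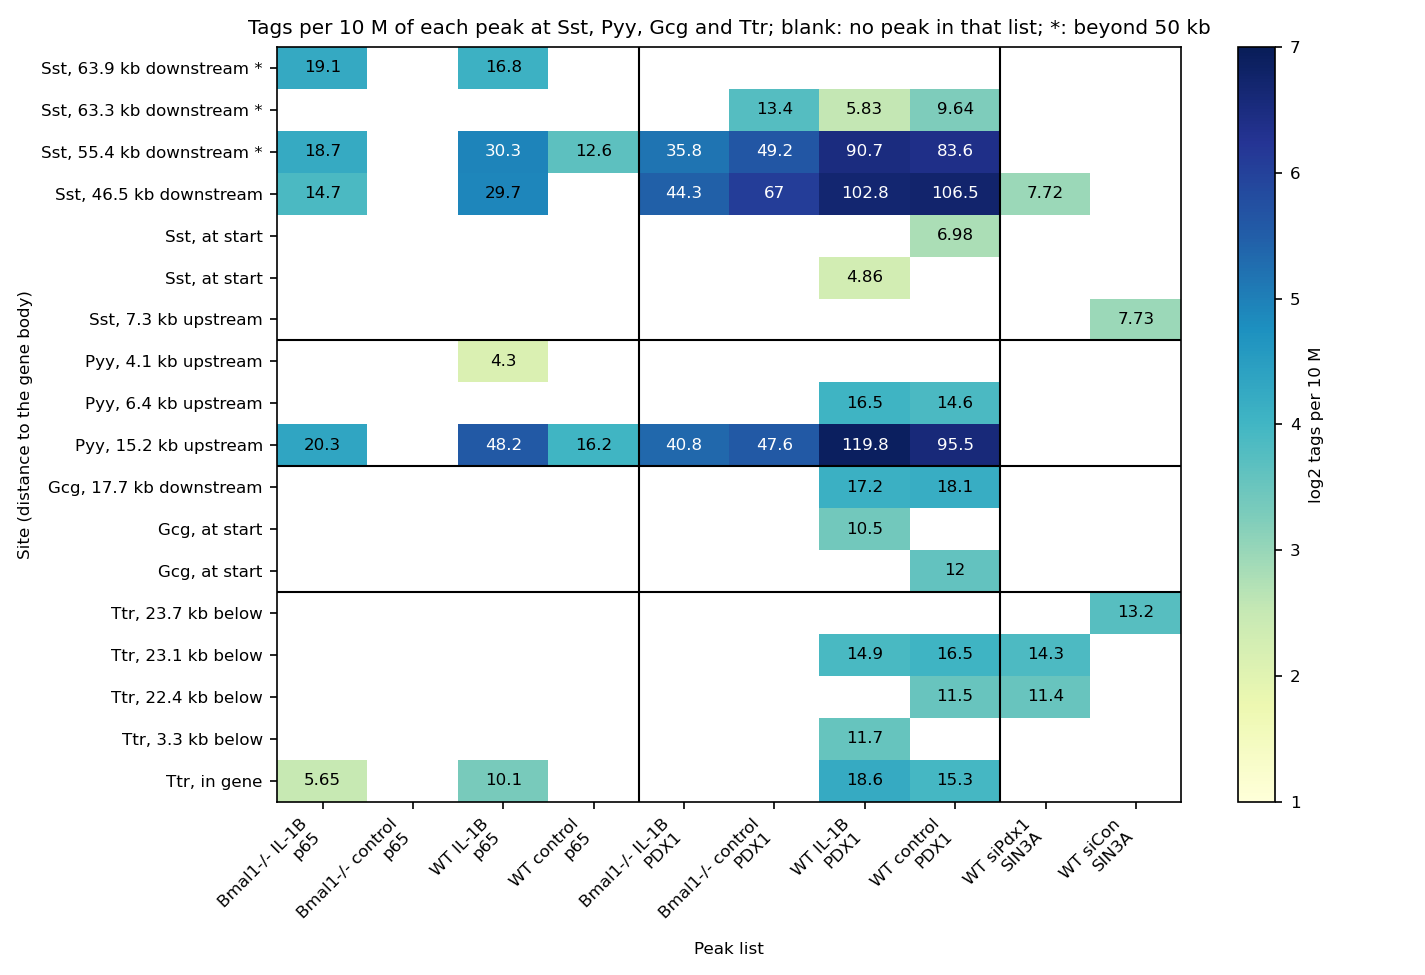
Normalised tag count of every peak assigned to Sst, Pyy, Gcg or Ttr (rows, by distance to the gene body) in each of the 10 peak lists (columns), with the colour on a log2 scale, blank cells where the list holds no peak and an asterisk for sites beyond 50 kb. The distal Sst and Pyy sites carry up to 106.5 and 119.8 tags in WT PDX1 lists and recur in the p65 lists, while the sites at the starts of Sst and Gcg stay between 4.86 and 12.0 tags. Ppy and Ghrl have no assigned peak and no row.

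Sst had its strongest PDX1 site downstream of the gene, on the side away from its start. Sst (gene 20604) lies on the minus strand of chromosome 16, from 23889573 to 23891342, with Rtp4 as the next protein-coding gene below it at a distance of 275 kb. The PDX1 peak 46.5 to 46.7 kb from the gene body carried 44.3 tags (39.3 to 49.8) in Bmal1-/- cells with IL-1β, 67.0 tags (60.7 to 73.8) in Bmal1-/- control cells, 102.8 tags (95.0 to 111) in WT cells with IL-1β and 106.5 tags (98.4 to 115) in WT control cells. Both WT values were above both Bmal1-/- values. The WT peaks were narrower, and a larger share of all tags lay in peaks in the WT lists, and the part of either in this difference was not tested. The WT values with and without IL-1β had overlapping intervals. In Bmal1-/- cells the count was lower with IL-1β, with intervals that do not overlap. Peak width also differs between those lists, and without replicates the difference cannot be set against the spread between samples. In WT control cells this peak, at 23842716 to 23842922, ranked 47 of 40028 by tag count. In Bmal1-/- control cells it ranked 66 of 8339.

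A second strong PDX1 site near Sst fell just outside the 50 kb limit, 55.4 to 55.6 kb downstream of the gene body. It carried 35.8 tags (31.3 to 40.8) in Bmal1-/- cells with IL-1β, 49.2 tags (43.8 to 55.1) in Bmal1-/- control cells, 90.7 tags (83.3 to 98.5) in WT cells with IL-1β and 83.6 tags (76.5 to 91.2) in WT control cells. The order of the genotypes was that of the 46 kb site. Here too the Bmal1-/- count was lower with IL-1β, with intervals that do not overlap, while the WT intervals overlapped. Another PDX1 site followed at 63.3 to 63.5 kb, with 13.4 tags in Bmal1-/- control cells, 5.83 tags in WT cells with IL-1β and 9.64 tags in WT control cells, and none in Bmal1-/- cells with IL-1β. With the limit at 50 kb, Sst therefore keeps 1 of these 3 neighbouring sites. All 3 lie inside Gm31430, a long non-coding RNA gene of the RefSeq table that spans 23804194 to 23846878, and no protein-coding gene is nearer to them than Sst.

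p65 was listed at the same distal Sst sites after IL-1β. At the 46 kb site the p65 peak carried 14.7 tags (11.7 to 18.2) in Bmal1-/- cells with IL-1β and 29.7 tags (25.3 to 34.7) in WT cells with IL-1β. Neither control list held a p65 peak there. Of all p65 peaks with IL-1β, only 0.724% in Bmal1-/- cells and 5.07% in WT cells overlapped a control p65 peak. At the 55 kb site p65 had 18.7 tags in Bmal1-/- cells with IL-1β, 30.3 tags in WT cells with IL-1β and 12.6 tags in WT control cells. This last peak was 4.83-fold over input, near the 4-fold minimum of the peak calling. Each of these p65 peaks overlapped a PDX1 peak of the same cells and condition. At 64 kb p65 and PDX1 differed in position. The p65 peaks there, with 19.1 tags in Bmal1-/- cells with IL-1β and 16.8 tags in WT cells with IL-1β, did not overlap the PDX1 site, and in WT cells with IL-1β the gap between the p65 and PDX1 peaks was 294 bp.

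**Figure D2:**
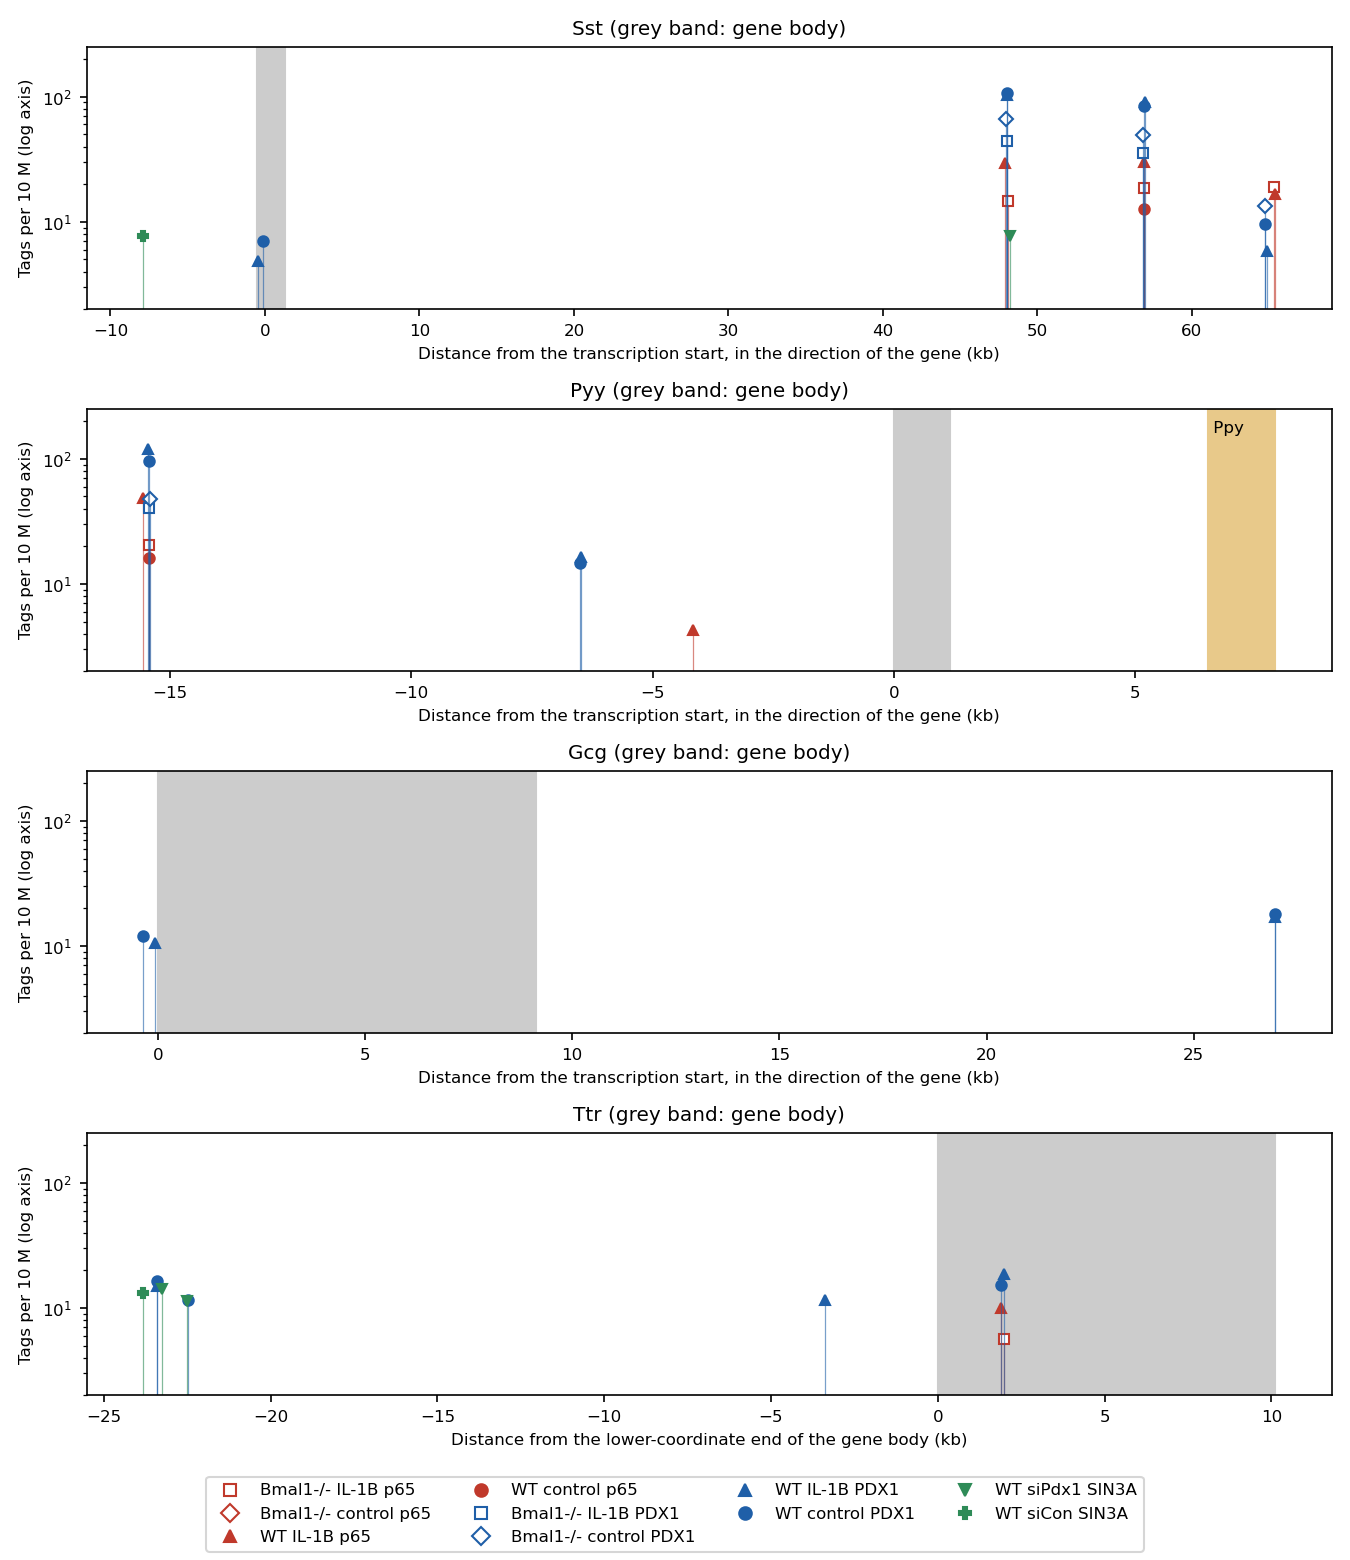
Position and normalised tag count (log axis) of every peak assigned to Sst, Pyy, Gcg and Ttr, by distance from the transcription start in the direction of the gene, or from the lower-coordinate end of the gene body for Ttr, with colour for the antibody, shape for the condition and open symbols for Bmal1-/- cells. The tallest PDX1 and p65 symbols stand over shared positions 46.5 to 55.6 kb beyond the Sst gene body and 15.2 to 15.4 kb before the Pyy gene body, and the Gcg panel holds PDX1 peaks of WT cells only.

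At the start of Sst the WT PDX1 lists held weak peaks, and the Bmal1-/- lists held none. In WT cells with IL-1β the peak had 4.86 tags (3.28 to 6.94) and was centred 443 bp upstream of the start at 23890844. The gene body extends past that start to 23891342, which lies under this peak, and takes in the bases printed below. In WT control cells it had 6.98 tags (5.03 to 9.43) and was centred 112 bp upstream. The peaks do not overlap, being 114 bp apart, so they count as different sites although they lie within 500 bp of each other. The lists were cut into 10 deciles by tag count, decile 1 being the highest, to read each peak against others of its height. Among all WT control PDX1 peaks in the same decile, 55.9% overlapped a WT peak with IL-1β and 6.52% a Bmal1-/- control peak.

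The sequence under the control peak is shown because it holds the elements for which this promoter is known. These are the 250 bases before the Sst start, RefSeq build GRCm38.p6, minus strand, chr16:23890845-23891094, 5′ to 3′, with capitals for the TAAT core and for the palindromic cyclic AMP response element TGACGTCA, at which CREB acts on this gene.
Sst: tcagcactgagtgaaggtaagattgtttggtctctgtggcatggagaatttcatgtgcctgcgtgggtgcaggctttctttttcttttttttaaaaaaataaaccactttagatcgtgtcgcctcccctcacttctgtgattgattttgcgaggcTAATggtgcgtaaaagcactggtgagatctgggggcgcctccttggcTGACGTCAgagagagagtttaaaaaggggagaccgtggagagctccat
Counting upstream from the start, the WT control PDX1 peak covers bases 215 to 9, which takes in the TAAT at 95 to 92 and the TGACGTCA at 48 to 41. TAAT, on either strand, occurs in 58.0% of 32851 RefSeq promoter windows of 300 bases (250 before to 50 after a start), and TGACGTCA in 1.79%.

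Gcg carried PDX1 peaks in WT cells alone and no p65 or SIN3A peak in any list. Gcg (gene 14526) lies on the minus strand of chromosome 2, from 62474530 to 62483653, between Dpp4, which encodes the protease that inactivates the Gcg product GLP-1, and Fap. A site 17.7 kb downstream of the gene body had 17.2 tags (14.1 to 20.8) in WT cells with IL-1β and 18.1 tags (14.9 to 21.8) in WT control cells, at positions that differed by 2 bp between centres. It lies inside Gm13561, a long non-coding RNA gene. The peaks at the Gcg start had 10.5 tags (8.10 to 13.4) in WT cells with IL-1β, centred 54 bp upstream, and 12.0 tags (9.39 to 15.1) in WT control cells, centred 349 bp upstream. As at Sst, these start peaks of the WT lists did not overlap, and 78 bp lay between them. In Bmal1-/- cells none of the 3 positions was listed, and the nearest PDX1 peak to Gcg was 54.3 kb away with IL-1β and 54.4 kb away in control, assigned to Fap. Of all WT control PDX1 peaks in the same deciles as the Gcg peaks, 44.3% (for 18.1 tags) and 17.5% (for 12.0 tags) overlapped a Bmal1-/- control peak, so most peaks of this strength were missing there too.

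The upstream bases of Gcg are shown for comparison with Sst, since the peak with IL-1β lies over them. These are the 250 bases before the start, RefSeq build GRCm38.p6, minus strand, chr2:62483654-62483903, with capitals for TAAT on either strand.
Gcg: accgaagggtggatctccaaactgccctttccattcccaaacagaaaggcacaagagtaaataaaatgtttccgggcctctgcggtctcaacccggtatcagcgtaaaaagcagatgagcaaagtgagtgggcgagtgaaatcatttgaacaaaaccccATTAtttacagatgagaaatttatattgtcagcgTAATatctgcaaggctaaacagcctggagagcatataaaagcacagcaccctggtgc
The WT PDX1 peak with IL-1β covers bases 167 to 1 upstream of the start and both TAAT matches, at 91 to 88 and 57 to 54. The WT control peak covers 5 of these bases, 250 to 246, and neither match. Besides these, TAATTA (which contains TAAT, and is held by 5.29% of windows), the E-box CACGTG (7.15%) and the κB consensus (4.51%), each searched on both strands, were not found in the promoter windows of Sst or Gcg. The 7 RefSeq promoter windows of Ppy, Pyy and Ghrl held none of the 5 motifs.

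Pyy had the single strongest PDX1 peak of the set, upstream of the gene, in WT cells with IL-1β. In each of the other PDX1 lists the 46 kb Sst peak had more tags than the Pyy peak. Pyy (gene 217212) lies on the minus strand of chromosome 11, from 102106676 to 102107832, with Ppy 5.36 kb beyond its end and Nags 37.7 kb before its start. The PDX1 peak 15.2 to 15.3 kb upstream of the gene body carried 40.8 tags (36.0 to 46.1) in Bmal1-/- cells with IL-1β, 47.6 tags (42.3 to 53.4) in Bmal1-/- control cells, 119.8 tags (111 to 129) in WT cells with IL-1β and 95.5 tags (87.9 to 104) in WT control cells. Again both WT counts were above both Bmal1-/- counts. In Bmal1-/- cells the intervals with and without IL-1β overlapped. In WT cells the count was higher with IL-1β, with intervals that do not overlap, but without replicates this cannot be set against the spread between samples. By tag count it ranked 195 of 8095 in Bmal1-/- cells with IL-1β, 288 of 8339 in Bmal1-/- control cells, 58 of 38930 in WT cells with IL-1β and 84 of 40028 in WT control cells. It overlaps Gm39394, a long non-coding RNA gene from 102123208 to 102134593.

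The same Pyy site was the only one assigned to the 6 genes that had a p65 peak without IL-1β. There p65 had 20.3 tags (16.8 to 24.4) in Bmal1-/- cells with IL-1β, none listed in Bmal1-/- control cells, 48.2 tags (42.5 to 54.5) in WT cells with IL-1β and 16.2 tags (13.0 to 20.0) in WT control cells. The Bmal1-/- peak was 4.98-fold over input, near the 4-fold minimum. A WT p65 peak shared between IL-1β and control was found for 4.81% of all protein-coding genes. The Bmal1-/- control list holds 173 peaks in all, the lowest at 5.33 tags, and a p65 peak shared between the control lists of the genotypes was found for 0.585% of genes. Of the WT control p65 peaks in the same decile as the Pyy peak, 31.1% overlapped a Bmal1-/- control peak. A smaller PDX1 site 6.38 to 6.40 kb upstream had 16.5 tags in WT cells with IL-1β and 14.6 tags in WT control cells. A p65 peak of 4.30 tags, 4.06 kb upstream and 4.31-fold over input, was listed in WT cells with IL-1β alone.

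Where p65 and PDX1 overlapped in the same cells and condition, their peak centres lay 2 to 112 bp apart. At the Pyy site the distance between the centres was 12 bp in Bmal1-/- cells with IL-1β, 108 bp in WT cells with IL-1β and 2 bp in WT control cells. At the 46 kb Sst site it was 50 bp in Bmal1-/- cells with IL-1β and 112 bp in WT cells with IL-1β. At the 55 kb Sst site it was 50 bp in Bmal1-/- cells with IL-1β, 9 bp in WT cells with IL-1β and 7 bp in WT control cells. The WT distance there was thus nearly the same with and without IL-1β, unlike that at the Pyy site. Inside Ttr it was 65 bp in WT cells with IL-1β. Since each list gives 1 centre per site, the error of these positions is unknown.

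**Figure D3:**
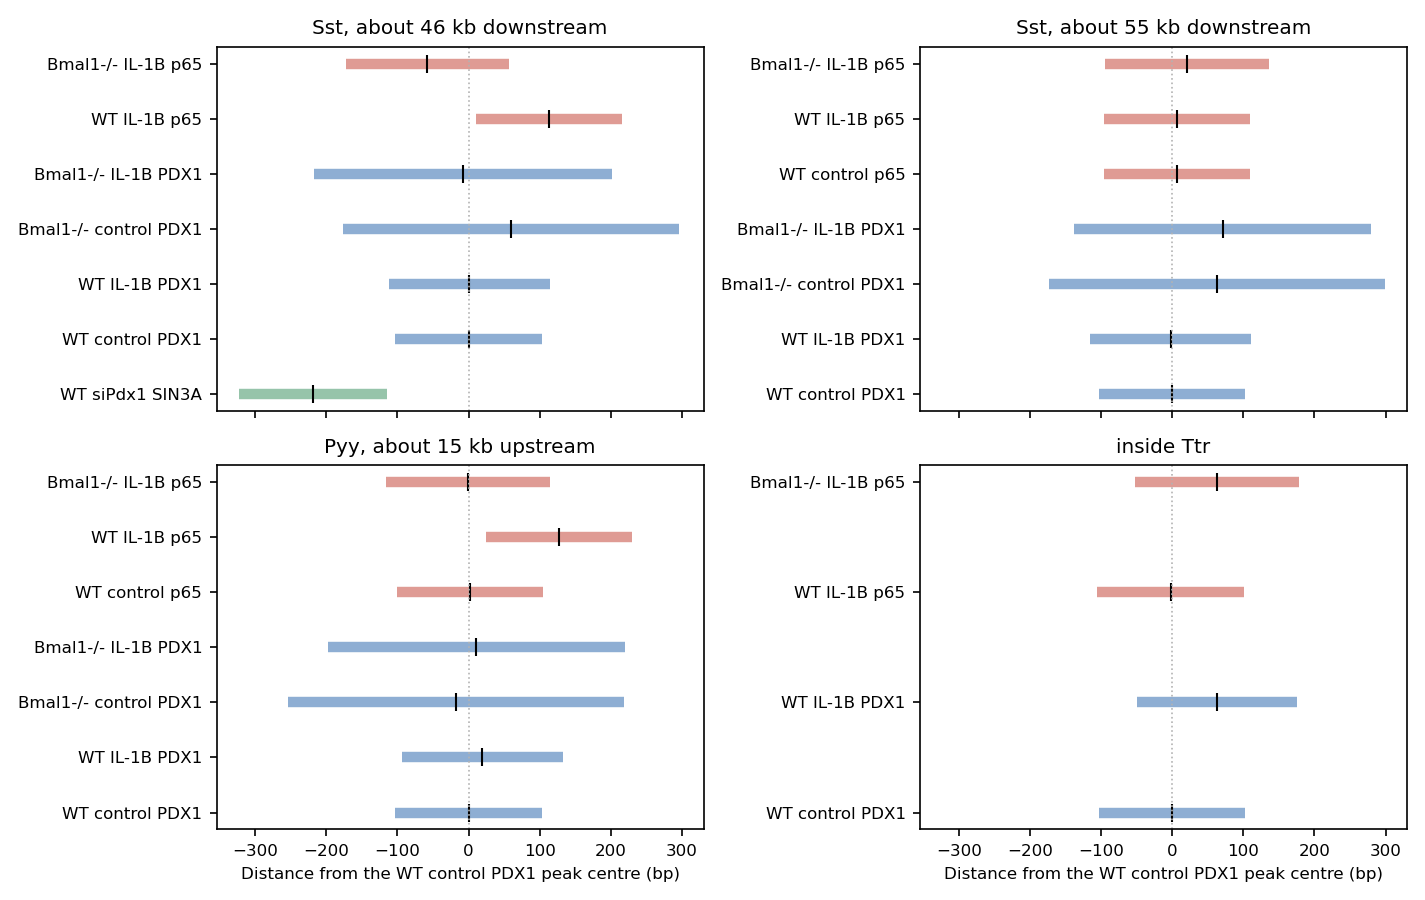
Extent (bars) and centre (ticks) of each peak at the 4 sites that p65 and PDX1 share, in bp from the centre of the WT control PDX1 peak (positive toward higher coordinates), with p65 in red, PDX1 in blue and SIN3A in green. The WT p65 peaks with IL-1β stand 113 bp and 127 bp from the WT control PDX1 centre at the Sst 46 kb and Pyy sites, and the Bmal1-/- PDX1 peaks are the widest.

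Ppy and Ghrl had no assigned peak in any of the 10 lists. Ppy (gene 19064, minus strand, chromosome 11, 102099931 to 102101319) shares its surroundings with Pyy, and the PDX1 peaks of the strong Pyy site lie 21.7 to 21.8 kb upstream of Ppy, with Pyy in between. The nearest PDX1 peak to Ppy was 21.7 kb away in both Bmal1-/- lists and 12.9 kb away in both WT lists, each assigned to Pyy. A nearest-gene rule cannot tell which of these neighbours a site serves. Ghrl (gene 58991, minus strand, chromosome 6, 113716119 to 113719911) lies between Tatdn2 and Sec13. In WT cells the nearest PDX1 peak was 10.1 kb away with IL-1β (5.18 tags) and 10.0 kb away in control (4.49 tags), assigned to Sec13, and in Bmal1-/- cells it was 79.4 kb away with IL-1β and 79.3 kb away in control. SIN3A peaks 18.7 kb from Ghrl, with 42.9 tags under Pdx1 siRNA and 38.3 tags under control siRNA, belonged to Tatdn2. Having no peak in any of the 10 lists is common, as 28.2% of all protein-coding genes had none.

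p65 reached 3 of the 6 genes with IL-1β in both genotypes, namely Sst, Pyy and Ttr. Of all protein-coding genes, 32.3% had a p65 peak in Bmal1-/- cells with IL-1β and 0.658% in Bmal1-/- control cells, against 45.4% in WT cells with IL-1β and 8.92% in WT control cells. Without IL-1β, 0 of 6 genes had a p65 peak in Bmal1-/- cells and 1 of 6 in WT cells, that gene being Pyy. All 3 member peaks of Bmal1-/- p65 with IL-1β overlapped a WT p65 peak with IL-1β, as did 79.1% of all peaks of that list (Wilson 95% interval 78.4 to 79.7%). A p65 peak shared between the genotypes with IL-1β was found for 27.4% of all genes, and one shared between IL-1β and control in Bmal1-/- cells for 0.434%, with 3 and 0 members. The highest p65 peak by tag count, at Pyy in WT cells with IL-1β, ranked 2355 of 31389.

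**Figure D4:**
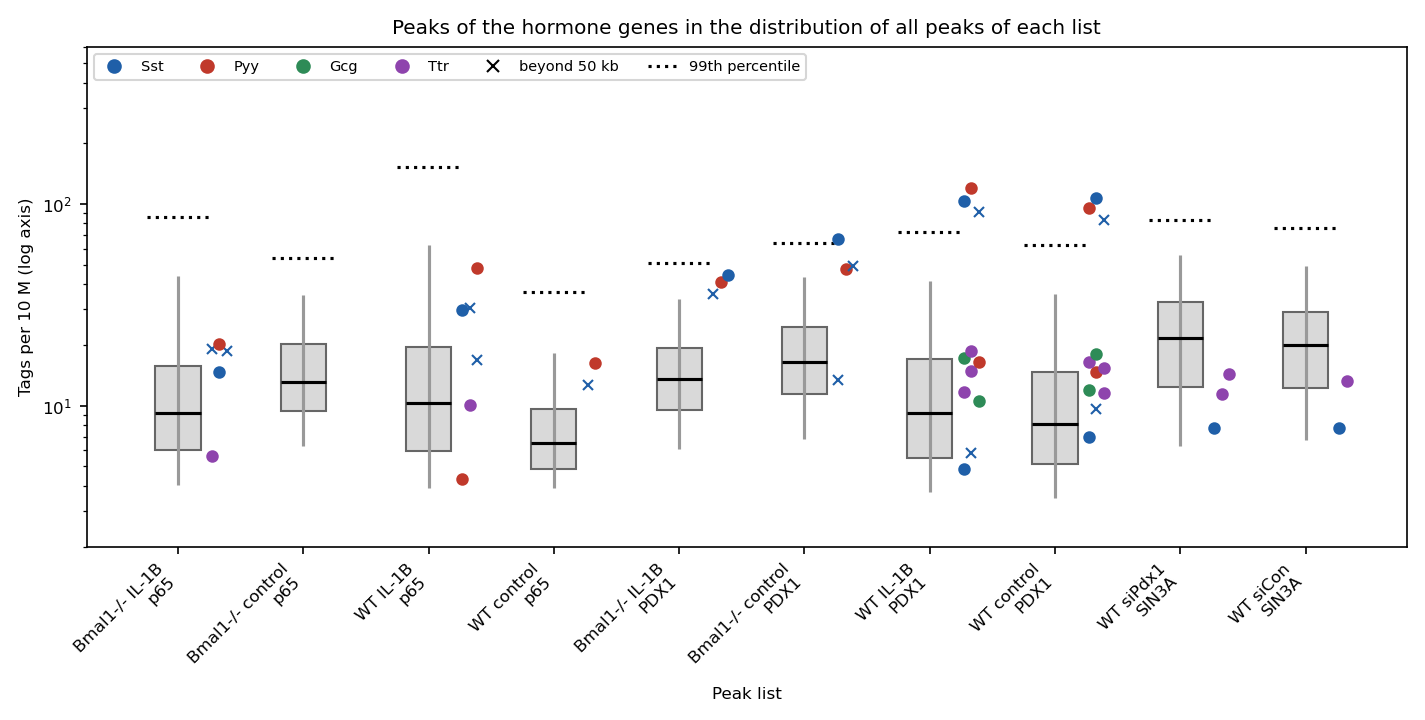
Normalised tag counts (log axis) of the peaks of Sst, Pyy, Gcg and Ttr beside the distribution of all peaks of the same list, drawn as the median, the quartiles (box), the 5th to 95th percentile (line) and the 99th percentile (dotted), with crosses for Sst peaks beyond 50 kb. Sst and Pyy peaks stand above the dotted line in both WT PDX1 lists, and the SIN3A peaks of Sst and Ttr lie below the median of their lists.

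PDX1 and p65 shared 2 of the member sites in Bmal1-/- cells with IL-1β and 3 in WT cells with IL-1β. In Bmal1-/- cells with IL-1β these were the 46 kb Sst site and the Pyy site, and in WT cells also the Ttr site. A gene with such a shared peak was found for 8.70% of all protein-coding genes in Bmal1-/- cells with IL-1β and for 20.0% in WT cells with IL-1β. Throughout the genome, most PDX1 peaks in decile 1 overlapped a p65 peak with IL-1β, but not in WT control cells. Of the PDX1 peaks in decile 1, 25.2% overlapped no p65 peak in Bmal1-/- cells with IL-1β, 35.0% in WT cells with IL-1β and 75.4% in WT control cells. Under control conditions Pyy alone shared a peak of both proteins in WT cells, as did 4.86% of all genes. The overlap at Sst and Pyy is thus what most PDX1 peaks of that decile show with IL-1β. The Ttr peak of WT cells with IL-1β lies in decile 3, where 37.6% of PDX1 peaks overlapped a p65 peak.

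Most PDX1 peaks of the set were listed both with and without IL-1β, as were most PDX1 peaks of all genes. In Bmal1-/- cells both PDX1 peaks of the control list were found with IL-1β. So were 58.8% of all peaks of that list and 97.1% of its decile 1, which holds both. In WT cells 6 of the 9 peaks with IL-1β overlapped 1 of the 9 control peaks, compared with 61.8% of all peaks of that list (61.3 to 62.3%). Counting peaks within 500 bp raised this to 8 of 9, the added ones being the start peaks of Sst and Gcg. A PDX1 peak shared between the WT lists was found for 31.1% of all protein-coding genes and for 10.7% between the Bmal1-/- lists.

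Whether a WT PDX1 site was also listed in Bmal1-/- cells went with its height. Of the 9 WT control PDX1 peaks, the 2 with 95.5 tags or more were listed in Bmal1-/- control cells and the 7 with 18.1 tags or fewer were not. With IL-1β the 2 with 102.8 tags or more were listed and the 7 with 18.6 tags or fewer were not. Among all WT control PDX1 peaks 78.3% of decile 1, 44.3% of decile 2 and 25.0% of decile 3 overlapped a Bmal1-/- control peak. Among WT PDX1 peaks with IL-1β, 76.5% of decile 1 and 24.0% of decile 3 overlapped a Bmal1-/- peak with IL-1β. Just beyond the 50 kb limit, the 63 kb Sst peak was listed in both genotypes under control conditions with 9.64 tags in WT cells, as were 9.87% of the WT peaks in its decile. A PDX1 peak shared between genotypes was found for 15.1% of all genes in control and 14.6% with IL-1β.

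Ttr had 3 PDX1 peaks in each WT list and none in the Bmal1-/- lists, and like Sst it also had p65 and SIN3A peaks. Most WT PDX1 peaks of this strength were missing in Bmal1-/- cells. Of WT control PDX1 peaks in the same deciles, 25.0% and 17.5% overlapped a Bmal1-/- control peak. With IL-1β the shares were 24.0% and 15.9%. Ttr (gene 22139) lies on chromosome 18 from 20664209 to 20674326, and its strand is not in the tables used here. Inside the gene, PDX1 had 18.6 tags (15.4 to 22.3) in WT cells with IL-1β and 15.3 tags (12.3 to 18.8) in WT control cells, and no peak in Bmal1-/- cells. p65 overlapped that site with 5.65 tags (3.86 to 7.98) in Bmal1-/- cells with IL-1β and 10.1 tags (7.59 to 13.2) in WT cells with IL-1β. Neither control list held it. Of the p65 peaks with IL-1β in the same deciles, 99.6% in Bmal1-/- cells and 96.2% in WT cells overlapped no control p65 peak. Inside Ttr a p65 peak was thus listed in Bmal1-/- cells with IL-1β without a PDX1 peak. This was also so for 80.1% of p65 peaks in the same decile of that list.

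The other Ttr sites of PDX1 lay on the lower-coordinate side. At 23.3 kb from the gene PDX1 had 14.9 tags in WT cells with IL-1β and 16.5 tags in WT control cells. These peaks were 4.07-fold and 4.94-fold over input, near the 4-fold minimum. At 22.4 kb PDX1 had 11.5 tags in WT control cells alone. At 3.27 kb PDX1 had 11.7 tags (5.01-fold over input) in WT cells with IL-1β alone. These sites are inside Gm16090, a long non-coding RNA gene that runs from 20597964 to 20665260 and overlaps one end of Ttr.

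SIN3A was listed at Sst and Ttr only, with weak peaks that differed in place between the siRNAs. Of all protein-coding genes, 48.9% had a SIN3A peak under Pdx1 siRNA and 46.4% under control siRNA, against 2 of the 6 members in each. At Sst the peak had 7.72 tags (5.09 to 11.2) under Pdx1 siRNA, 46.9 kb downstream, and 7.73 tags (4.95 to 11.5) under control siRNA, 7.26 kb upstream. The first of these lies 11 bp from the WT control PDX1 peak of the 46 kb site and overlaps the wider Bmal1-/- control PDX1 peak by 63 bp. At Ttr the peaks had 14.3 and 11.4 tags under Pdx1 siRNA, each overlapping a WT control PDX1 peak, and 13.2 tags under control siRNA, at 23.7 kb, overlapping none. No member peak overlapped between the siRNA lists, although 65.7% of all peaks under Pdx1 siRNA overlapped one under control siRNA, and 1 of 3 lay within 500 bp of one. A SIN3A peak shared between the siRNAs was found for 38.2% of all genes. One shared with WT control PDX1 was found for 4.08% under Pdx1 siRNA, among them Ttr, and for 3.39% under control siRNA, with no member. All 5 peaks were below the medians of their lists, 21.7 tags under Pdx1 siRNA and 20.0 under control siRNA. Of the peaks under Pdx1 siRNA in the same deciles, 50.7% (Ttr) and 36.8% (Sst) overlapped a peak under control siRNA.

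Other genes around these hormones were taken as lists for comparison. Their PDX1 counts are to be read beside the shares of all protein-coding genes with a PDX1 peak. These were 16.0% and 16.3% in Bmal1-/- cells with and without IL-1β, and 41.1% and 41.6% in WT cells. Of 12 endocrine cell factor genes, among them Hhex of the delta cell, PDX1 had a peak at 9 in Bmal1-/- cells with IL-1β, 8 in Bmal1-/- control cells, 12 in WT cells with IL-1β and 12 in WT control cells. The highest in WT control cells was Rfx6, a factor of islet development, with 82.8 tags. Of 13 receptor genes for the hormones, none had a PDX1 peak in Bmal1-/- cells and 4 had one in WT cells with IL-1β and 4 in WT control cells, Glp1r with 27.8 tags being the highest in control. Processing enzyme genes had a PDX1 peak in 3 and 5 of 8 cases in Bmal1-/- cells with and without IL-1β and in 6 of 8 in both WT lists, led by Cpe, which trims prohormones, with 114.0 tags in WT control cells. Of 12 enteroendocrine hormone genes 5 and 4 had a PDX1 peak in Bmal1-/- cells with and without IL-1β, against 10 and 8 in WT cells, led in WT control cells by Chga with 59.7 tags. Of the 3 β-cell hormone genes 2 and 3 had one in Bmal1-/- cells and 3 and 2 in WT cells, and Ins2 carried 89.9 tags in WT control cells, fewer than the distal Sst (106.5) and Pyy (95.5) peaks of that list. Of 4 carrier genes for thyroid hormone and retinol 2 and 0 had one in Bmal1-/- cells and 2 and 3 in WT cells, led in WT control cells by Serpina7 with 11.0 tags.

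For p65 with IL-1β the same lists gave 9 endocrine cell factor genes in Bmal1-/- cells and 11 in WT cells, 2 and 4 receptor genes, 5 and 7 processing enzyme genes, 8 and 7 enteroendocrine hormone genes, 1 and 2 β-cell hormone genes and 1 and 2 carrier genes. Without IL-1β no gene of these lists had a p65 peak in Bmal1-/- cells, and 4 endocrine cell factor, 0 receptor, 4 processing enzyme, 2 enteroendocrine hormone, 1 β-cell hormone and 1 carrier genes had one in WT cells. The shares of all protein-coding genes with a p65 peak were 32.3% and 0.658% in Bmal1-/- cells with and without IL-1β. In WT cells they were 45.4% and 8.92%. SIN3A lay at 6 endocrine cell factor genes under either siRNA, 3 receptor genes under Pdx1 siRNA and 4 under control siRNA, and 7 and 8 processing enzyme genes. Among these, and chosen after its values were seen, Mboat4, the enzyme that acylates ghrelin, had a SIN3A peak with 52.0 tags under Pdx1 siRNA and 51.5 under control siRNA, while Ghrl had none. The remaining SIN3A counts were 4 enteroendocrine hormone genes under Pdx1 siRNA and 3 under control siRNA, 0 β-cell hormone genes under either and 1 carrier gene under either. A SIN3A peak was found for 48.9% of all protein-coding genes under Pdx1 siRNA and for 46.4% under control siRNA.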

How the data were processed

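The 34 samples comprise 28 immunoprecipitates and 6 inputs, grouped by their titles. The values are 10 peak lists, called with HOMER findPeaks in factor style against 1 input each, per the file headers, at an FDR of 0.001 and at least 4-fold over input and over the local 10 kb, with a Poisson limit of 0.0001. Whether replicates were pooled is not stated. Bowtie2, HOMER and mm10 are named in the submitters' processing notes without roles. The peak signal is the authors' tag count per 10 M tags. The peak score and fold over input are the authors', as deposited, and the score served only to trim lists to equal length. Alignment settings: not given in the sources used here.

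Peaks were assigned to 21887 protein-coding genes of RefSeq GRCm38.p6 in Python 3.11.15 with pandas 2.3.3, and peaks overlapping by at least 1 bp counted as shared. Assignment and overlap were tested on simulated data. Alternatives were other gene distances, gene sets, overlap rules and a stricter fold. Poisson intervals used the tag count times the depth in the header. The written rule named all 6 members with every peak, and the highest gene of each comparison list in the longest WT list. Genes, lists and tests were chosen with earlier results of these data known. No test between conditions was made, since no replicate value is in the lists. RefSeq promoter windows were used for 5 of the 6 members. Exons and introns were not analysed here.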

Additional observations from a re-analysis of the deposited data

How the results depend on the processing

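Each of 34 counts (genes with a peak, peaks, and shared peaks) was recomputed under up to 8 alternatives, giving 192 values, of which 91 moved by over 1.5 times. Counts of this size change with 1 peak. With a limit of 10 kb the distal Sst and Pyy sites drop out, and the peaks at the members numbered 1 and 0 for Bmal1-/- p65 with and without IL-1β, 2 and 0 for WT p65, 0 for both Bmal1-/- PDX1 lists, 5 and 4 for WT PDX1, and 0 and 1 for SIN3A under Pdx1 and control siRNA; shared peaks were 0, 1 or 2 where they moved. With 100 kb they numbered 5 for Bmal1-/- p65 with IL-1β, 2 for WT control p65 and 4 for Bmal1-/- control PDX1, and shared peaks numbered 2, 4 or 5 where they moved. At 8-fold over input 1, 2 and 0 peaks were left for Bmal1-/- p65 with IL-1β, WT p65 with IL-1β and WT control p65, 1 for Bmal1-/- PDX1 with IL-1β, 5 for both WT PDX1 lists and 1 for each SIN3A list, with 0, 1 or 3 shared where they moved. When non-coding genes also counted, 1 peak was left for each p65 list with IL-1β, 0 for WT control p65 and Bmal1-/- PDX1, 3 for each WT PDX1 list, and 0 and 1 for SIN3A, with 0 or 1 shared where they moved. A reciprocal overlap of 50% or centres within 100 bp left 0 or 1 shared peaks where they moved. Equal list lengths moved no count, and counting peaks within 500 bp, chosen after seeing the data, gave 1 in place of 0 between the siRNA lists of SIN3A and between SIN3A under control siRNA and WT control PDX1. The construction of each alternative sets these changes.

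No paired analysis was possible because the lists hold 1 value per group and none per replicate, and leaving out a replicate was not run for the same reason. Depth limits the weakest peaks, of which 4.30 tags has an interval of 2.73 to 6.45.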

Other observations

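Genes with the same presence and absence as a member over the 10 lists were counted. The pattern of Pyy, with PDX1 in all 4 lists, p65 in 3 and SIN3A in none, was held by 141 other genes, and that of Gcg, with PDX1 in both WT lists only, by 377. Ttr shared its pattern with 786 other genes and Sst with 748. Named after their values were seen, the genes with the pattern of Pyy and the highest WT control PDX1 peaks were Kcnip4 (131.3 tags) and Slc30a8 (123.3 tags), the zinc transporter of insulin granules.

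Of the 47 peaks within 100 kb assigned to a member, 35 overlapped a long non-coding RNA gene of the RefSeq table, 19 of them in Gm31430 beside Sst, 7 in Gm39394 beside Pyy, 7 in Gm16090 beside Ttr and 2 in Gm13561 beside Gcg. No transcript was measured here.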
